A study of Mus musculus with 6 samples.

Results

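Acute phase proteins are plasma proteins that the liver makes in larger or smaller amounts during inflammation. The 10 genes described here are Orm1, Orm2, Orm3, Saa2, Saa3, Saa4, Apcs, Hp, Hpx and Lcn2, out of 22180 genes that had a probe set naming 1 gene. The rule takes them by gene symbol, and each had 1 such probe set, so no choice between probe sets was needed. All 10 lay above the filter for testing, which kept the upper 50% of genes by mean signal, at a log2 value of 2.99 or more. The livers came from 6 male mice on a C57BL/6J background, 3 whole-body knockouts (KO) of the G protein-coupled receptor gene Gpr146 and 3 wild-type (WT) littermates. Every mouse was 24 weeks old, ate chow, was fasted for 16 hours and was then refed for 6 hours, and no label gives a mouse an inflammatory agent. Each array holds the liver of 1 mouse. The sources used here do not say which part of Gpr146 was deleted.

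In the acute phase, cytokines made by macrophages, above all interleukin 6 (IL-6) and interleukin 1 (IL-1), act on hepatocytes. The IL-6 receptor signals through JAK kinases and the transcription factor STAT3, IL-1 signals through NF-kB and C/EBP factors, and glucocorticoid hormones reinforce several of the targets. Orosomucoids, serum amyloid A, haptoglobin and hemopexin rise in mouse plasma in that response and serum amyloid P is the main acute phase pentraxin of the mouse, while albumin and transthyretin are known to fall.

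Promoter sequence was available for 8 of the 10 members, in the RefSeq windows of build GRCm38.p6 that run from 250 bases before a transcript's start. The C/EBP pattern TTGCNNAA, read on both strands over those 250 bases, occurred in 7 of the 8, namely Orm2, Orm3, Saa2, Saa3, Saa4, Hpx and Lcn2, and in 9.56% of 32851 promoters of the same length. These windows are shown because they hold that pattern, the feature most of the members share; each line has 52 bases, 5′ to 3′ on the gene's strand, with the match nearest the start in capitals.
Orm2, chr4:63362307-63362358, + strand: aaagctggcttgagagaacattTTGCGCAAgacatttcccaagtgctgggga
Orm3, chr4:63356015-63356066, + strand: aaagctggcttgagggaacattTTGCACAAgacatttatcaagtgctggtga
Saa2, chr7:46751628-46751679, + strand: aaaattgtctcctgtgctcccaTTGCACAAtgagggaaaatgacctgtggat
Saa4, chr7:46732626-46732677, - strand: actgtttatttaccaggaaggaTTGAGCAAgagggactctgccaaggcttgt
Lcn2, chr2:32387926-32387977, - strand: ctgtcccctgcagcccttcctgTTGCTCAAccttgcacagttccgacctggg
Hpx, chr7:105600287-105600338, - strand: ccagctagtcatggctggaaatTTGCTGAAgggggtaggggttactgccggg

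Orm2 and Orm3 are neighbours on chromosome 4, and their promoters were 89% identical over 245 aligned bases. In the windows above they differed at 5 positions, counted from 1 at the 5′ end with the Orm2 base first: A15G, G27A, C38A, C39T and G50T, of which G27A lies inside the C/EBP match. The core letters of the glucocorticoid receptor's site, AGAACA on either strand, was found before the starts of Orm2 and Apcs and in 16.1% of all promoters. STAT3's pattern TTCNNNGAA occurred in Apcs alone among the 8 members with promoter sequence and in 7.02% of all promoters. Orm1 and Hp had no promoter sequence here and were not searched. The NF-kB pattern occurred in none of the 8 and in 3.9% of all, and TATAAA in Orm2 and Orm3 and in 12.4%. A match of letters does not show that a factor binds there, and a missing match says only that these letters are not in the window. In Orm2 the letters AGAACA do not overlap the C/EBP match. A15G is at their first base, and AGAACA was not found in Orm3.

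The deposited values are log2 signals, and array medians ranged from 2.67 to 2.73. Gpr146 itself ran from 5.56 to 5.96 over the WT livers and stood at 4.61, 4.28 and 3.87 in the KO livers, with no overlap; the limma adjusted p was 0.0702. All 7 hepatocyte markers, Alb among them, lay above the filter, and Alb was at 11.92 ± 0.02 in WT and 11.91 ± 0.01 in KO (SD, n = 3 each). KO mouse 3 stood out for the genes below: it was the highest of the 6 livers in 25.6% of the 11090 genes tested but in 8 of the 10 members. The members' counts and median, and the differences of some genes, are therefore also given without that mouse. With bulk liver RNA, fewer cells of a type and less RNA per cell cannot be told apart.

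Across all 11090 genes tested, limma, a linear model that shares variance between genes, called 4 at a Benjamini-Hochberg adjusted p under 0.05, which is 0.0361%, and none of the 10 members was among them. At an unadjusted limma p under 0.05 there was 1 member, Orm3, lower in KO, against 9.13% of all genes in either direction and 2.98% lower in KO. Differences of the members, KO minus WT on the log2 scale, had a median of 0.052, beside 0.027 for all genes tested. They ran from -0.69 for Orm3 to 0.61 for Saa3, with 6 positive and 4 negative. In all genes tested 57.7% were positive.

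Orosomucoids, also called alpha-1 acid glycoproteins, are lipocalins that bind drugs, steroids and other small lipophilic molecules in plasma. Orm1 measured 8.41, 8.25 and 8.48 in the WT mice (1 to 3, in that order throughout) and 8.19, 7.88 and 9.06 in the KO mice. The WT livers lay close together and inside the KO range, which was set by a low KO mouse 2 and a high KO mouse 3. The difference was -0.00086 ± 0.26 (SE; 95% interval -0.59 to 0.59; limma adjusted p = 0.999).

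Orm2 measured 5.93, 6.81 and 5.77 in the WT mice and 6.28, 5.47 and 7.01 in the KO mice. KO mouse 2 was again lowest and KO mouse 3 highest, but here WT mouse 2 was close to the top. The groups overlapped throughout, with a difference of 0.081 ± 0.38 (SE; 95% interval -0.79 to 0.95; limma adjusted p = 0.969). That interval spans nearly 1 log2 unit on either side.

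Orm3 measured 4.67, 5.38 and 5.28 in the WT mice and 4.66, 4.11 and 4.50 in the KO mice. It was the only member whose groups did not overlap, although WT mouse 1 and KO mouse 1 differed by little; non-overlap with KO lower occurred in 5.16% of all genes, and in either direction in 14.8%. The difference was -0.69 ± 0.21 (SE; 95% interval -1.16 to -0.22), a signal 1.61-fold higher in WT, with an unadjusted limma p of 0.00889, an adjusted p of 0.373, and p = 0.1 by exact permutation, the lowest value that groups of 3 and 3 can reach. Orm3 thus did not pass. In 14 other settings (leaving out each mouse, other scalings, filters and fits) the difference stayed negative, from -0.91 without WT mouse 1 to -0.44 with a pseudocount of 16 added to the linear signal, and its adjusted p ran from 0.336 to 0.637. Measured within each mouse, Orm3 minus Orm1 differed by -0.69 and Orm3 minus Orm2 by -0.77 between KO and WT; the groups overlapped in both and the exact permutation p was 0.2 each, so Orm3 was not shown to differ from its paralogs in its response. The sources used here do not say whether the array's probes separate these related genes.

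**Figure D1:**
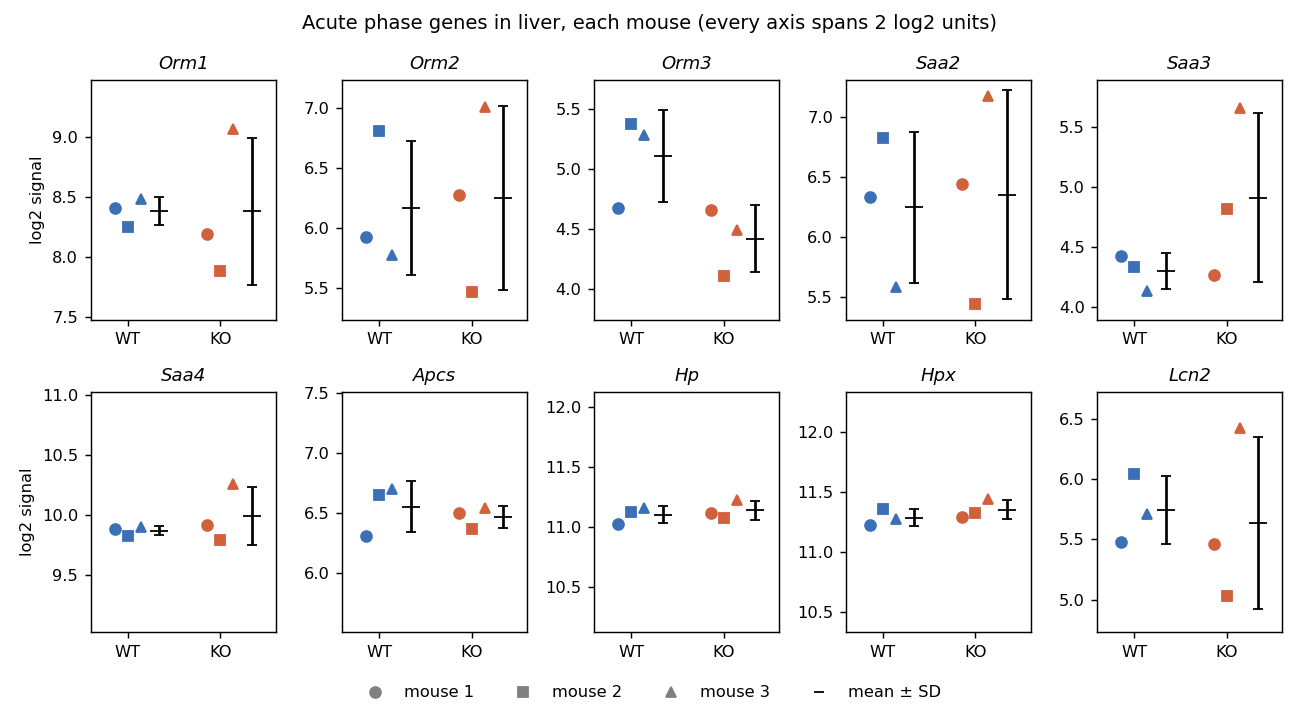
Log2 signal of the 10 acute phase genes in each mouse, with 1 panel per gene and the same span of 2 log2 units on every y axis; WT mice are blue, KO mice orange, marker shapes give the mouse number, and bars are the mean ± SD (n = 3). KO and WT overlap in every gene but Orm3, and KO mouse 3 is the highest point in 8 of the 10 panels.

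Serum amyloid A proteins are small apolipoproteins carried on high-density lipoprotein. Saa1 and Saa2 are the main inducible liver forms, Saa3 is also made by macrophages and fat cells, and Saa4 is made constitutively. Saa1 had no probe set of its own and was not analysed here: 1 probe set is assigned to Saa1 and Saa2 together. The Saa1 promoter is 95.6% identical to that of Saa2 over 249 aligned bases, but the likeness of the 2 transcripts was not computed. The sources used here do not say whether the probe set of Saa2 also reads Saa1.

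Saa2 measured 6.34, 6.83 and 5.58 in the WT mice and 6.45, 5.45 and 7.18 in the KO mice. Its range over the 6 mice, 1.73 log2 units, was the widest of the 10 members, and it ran through both genotypes: the lowest livers were KO mouse 2 and WT mouse 3. The difference was 0.11 ± 0.43 (SE; 95% interval -0.87 to 1.08; limma adjusted p = 0.961). Saa2 and Orm2 ranked the 6 mice in the same order, which 20 of the 11090 genes (0.18%) did, the pair included. With many pairs of members to compare, that shared order is a description only.

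Saa3 measured 4.43, 4.34 and 4.13 in the WT mice and 4.27, 4.82 and 5.66 in the KO mice. KO mice 2 and 3 lay above every WT mouse and KO mouse 1 lay inside the WT range. This gave the largest positive difference of the members, 0.61 ± 0.29 (SE; 95% interval -0.057 to 1.28; limma adjusted p = 0.576; exact permutation p = 0.3). It was 0.24 without KO mouse 3 and 0.94 without KO mouse 1 (limma adjusted p = 0.845 and 0.434). Unlike in 6 of the other members, KO mouse 2 was not the lowest liver here; WT mouse 3 was.

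Saa4 measured 9.88, 9.82 and 9.90 in the WT mice and 9.92, 9.79 and 10.25 in the KO mice. Apart from KO mouse 3 the livers lay within a narrow band. The difference of 0.12 ± 0.13 (SE; 95% interval -0.17 to 0.41; limma adjusted p = 0.817) was -0.015 without that mouse.

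Apcs encodes serum amyloid P, a pentraxin that binds amyloid fibrils and bacterial surfaces. It measured 6.31, 6.65 and 6.70 in the WT mice and 6.50, 6.37 and 6.54 in the KO mice. All 3 KO livers lay inside the WT range. The difference was -0.084 ± 0.12 (SE; 95% interval -0.36 to 0.20; limma adjusted p = 0.882).

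The last 3 members bind haem, haemoglobin or iron carriers. Hp, haptoglobin, captures free haemoglobin, and it measured 11.02, 11.12 and 11.16 in the WT mice and 11.12, 11.08 and 11.23 in the KO mice. The groups overlapped within 0.20 log2 units, and the difference was 0.038 ± 0.093 (SE; 95% interval -0.17 to 0.25; limma adjusted p = 0.931). Hpx, hemopexin, captures free haem, and it measured 11.22, 11.36 and 11.27 in the WT mice and 11.29, 11.33 and 11.44 in the KO mice. Its groups overlapped too, with a difference of 0.065 ± 0.093 (SE; 95% interval -0.15 to 0.28; limma adjusted p = 0.878). For both genes the interval leaves out a change of 0.5 log2 units either way. Both genes lie near the highest signal of these arrays, 12.1 to 12.2.

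Lcn2, lipocalin 2, binds the iron-carrying siderophores of bacteria and is made by hepatocytes and neutrophils. It measured 5.48, 6.04 and 5.72 in the WT mice and 5.46, 5.03 and 6.43 in the KO mice. KO mice 1 and 2 were the lowest livers of the 6 and KO mouse 3 the highest. The difference was -0.11 ± 0.32 (SE; 95% interval -0.82 to 0.61; limma adjusted p = 0.943), and -0.50 without KO mouse 3.

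**Figure D2:**
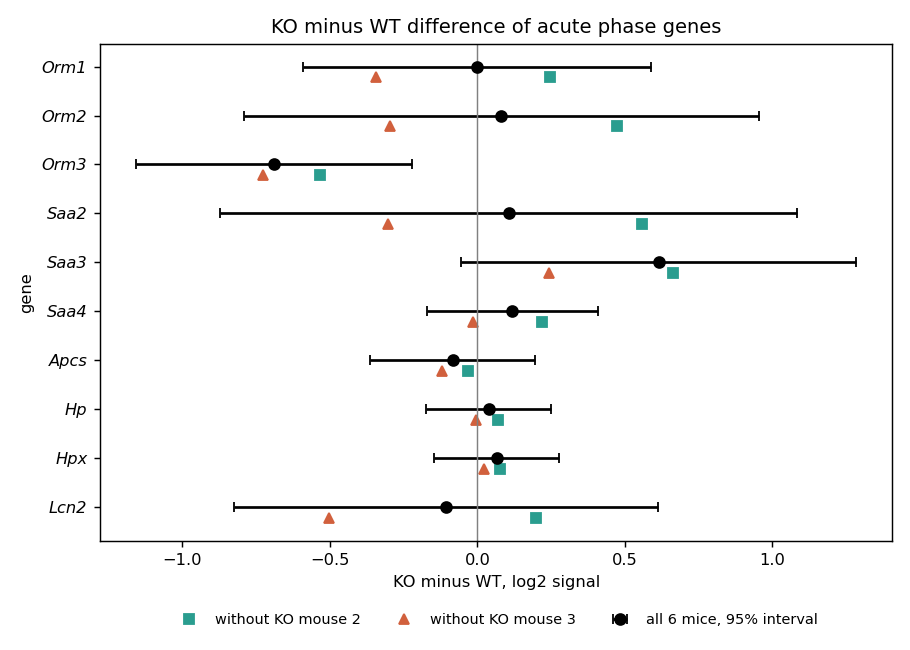
KO minus WT difference in log2 signal for each acute phase gene; black points with bars are the 6-mouse differences with their 95% limma intervals, green squares leave out KO mouse 2 and orange triangles leave out KO mouse 3. All intervals but that of Orm3 include 0, and for Orm1, Orm2, Saa2, Saa4, Hp and Lcn2 the 2 coloured marks lie on opposite sides of 0, narrowly so for Hp.

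The sign of the members' median difference depended on which KO mouse was left out. Without KO mouse 3, 8 of the 10 members were lower in KO and their median difference was -0.21, beside 0.013 for all genes tested. Without KO mouse 2, 8 were higher and the median was 0.21. KO mouse 3 was singled out because it was high in these genes, so leaving it out lowers their KO mean by construction. KO mouse 2 was low in most of them, so leaving it out raises that mean by construction. The values without either mouse are a description. Without KO mouse 3 the 3 members with an unadjusted limma p under 0.05 were Orm3 at -0.73, Orm1 at -0.34 and Lcn2 at -0.50. All 3 were lower in KO. The count over the 11090 genes tested was 771, but it takes in both directions. A count of those lower in KO is not given for this setting. Limma called 1 gene without KO mouse 3, 0.00902%, which was no member.

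The spread between the KO livers was wider than between the WT livers for 8 of the 10 members, beside 46.6% of all genes tested. The median SD of the members was 0.45 in KO and 0.18 in WT; over all genes tested it was 0.12 and 0.13. Orm1 had an SD of 0.61 in KO and 0.12 in WT, Saa3 0.70 and 0.15, Lcn2 0.72 and 0.28, and Saa4 0.24 and 0.041. Orm3 and Apcs were the exceptions, at 0.28 and 0.091 in KO and 0.38 and 0.21 in WT. The KO spread was also wider for 12 of 18 tested other acute phase genes that rise in inflammation, with a median SD of 0.17 in KO and 0.11 in WT. It was wider for 6 of 7 tested genes that handle the members and their cargo. It was wider for 1 of 8 tested negative acute phase genes, 3 of 9 cytokine and receptor genes and 2 of 13 kinase and factor genes. The wide KO spread holds the high KO mouse 3 and the low KO mouse 2, so it is no separate result. The difference in spread was not tested.

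Taking each member's deviation from its own mean over the 6 mice, KO mouse 3 was above the mean in 9 of the 10 and KO mouse 2 in 2. Deviations in KO mouse 3 ran from -0.27 for Orm3 to 1.05 for Saa3, with a median of 0.51. In KO mouse 2 they ran from -0.85 for Saa2 to 0.21 for Saa3, with a median of -0.32. KO mouse 2 was the lowest liver for 6 members, beside 12.4% of all genes tested. WT mouse 2, with 7 members above their mean, had its highest deviations in Orm3 at 0.61, Orm2 at 0.60 and Saa2 at 0.53. KO mouse 3 was the highest liver for 8 members also after median centring of the arrays and for 7 after quantile normalization, settings added after the data were seen.

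**Figure D3:**
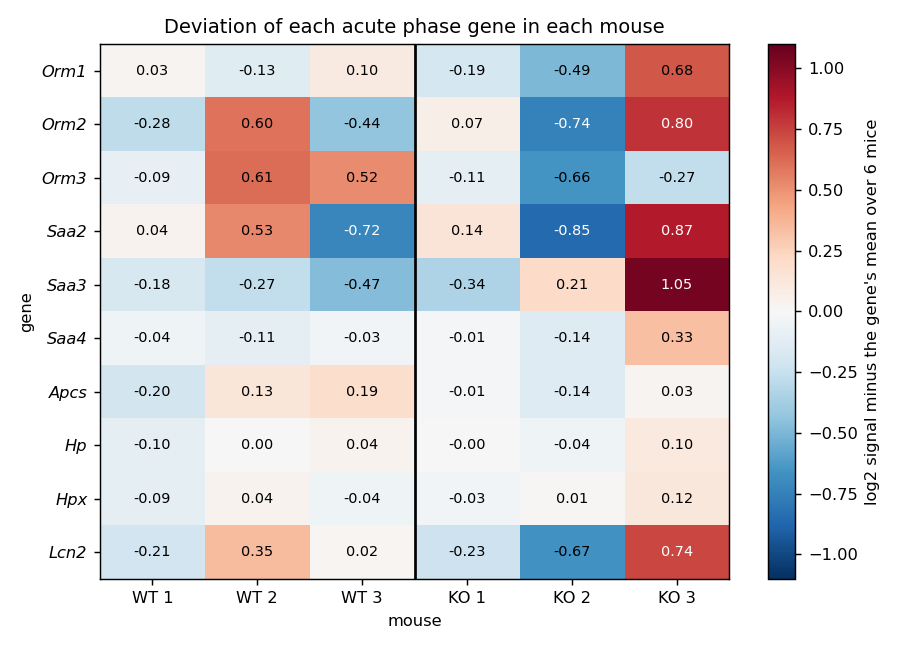
Deviation of each acute phase gene in each mouse from that gene's mean over the 6 mice, in log2 units, with genes as rows, mice as columns and WT left of the line; red is above and blue below the mean. The KO mouse 3 column is above the mean in every row but Orm3, and the KO mouse 2 column is below it in every row but Saa3 and Hpx.

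The genes outside the 10 whose profile over the 6 mice came nearest to the members' mean profile were Lbp, Zfp943, Prr29, Cxcl9 and Zscan29. Likeness was the root mean square difference of centred log2 values over the 6 mice, which was 0.064 for Lbp and at most 0.086 for the others, against a median of 0.27 over all other genes tested. Lbp, the lipopolysaccharide-binding protein and itself an acute phase protein, measured 7.45, 7.81 and 7.61 in the WT mice and 7.50, 7.23 and 7.93 in the KO mice. As in the members' mean, KO mouse 2 was lowest and KO mouse 3 highest. Cxcl9, a chemokine induced by interferon gamma, measured 5.65, 5.93 and 5.601 in the WT mice and 5.85, 5.54 and 6.23 in the KO mice. With 6 values a gene and 11090 genes compared, the likeness is a description only.

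Of 23 other acute phase proteins that rise in inflammation, 18 were tested and limma called none; 1, Mt1, had an unadjusted p under 0.05. Their median difference was 0.043, with 11 positive and 7 negative. Mt1, a metal-binding metallothionein, measured 6.35, 6.93 and 5.96 in the WT mice and 5.55, 5.11 and 5.94 in the KO mice. Its groups did not overlap, though WT mouse 3 and KO mouse 3 nearly met, and the difference was -0.88 ± 0.27 (SE; limma adjusted p = 0.376). Itih3, an inter-alpha-trypsin inhibitor heavy chain, was at 0.25 ± 0.14, Hamp, the iron-regulating hormone hepcidin, at 0.18 ± 0.11 and Crp, C-reactive protein, at 0.19 ± 0.11 (SE; limma adjusted p = 0.631, 0.641 and 0.643). KO mouse 3 was the highest liver for 10 of the 18 and KO mouse 2 the lowest for 6.

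The 8 of 10 negative acute phase genes tested had a median difference of 0.010 and none was called by limma or had an unadjusted p under 0.05. Fetub, fetuin B, was at 0.16 ± 0.088 and Rbp4, the plasma retinol carrier, at 0.094 ± 0.091 (SE; limma adjusted p = 0.623 and 0.790); in both genes every KO liver lay above every WT liver, which held in 9.63% of all genes. Serpina6, the corticosteroid-binding globulin, was at -0.055 and Apoa2, an apolipoprotein of high-density lipoprotein, at 0.033. KO mouse 3 was the highest liver for 0 of these 8. Most of the 8, among them Alb, Apoa2 and Rbp4, lie near the highest signal of these arrays, 12.1 to 12.2.

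The cytokine and receptor genes upstream of the members had differences from -0.91 to 0.91. Of 13, 9 were tested, and Il6, Tnf, Lif and Osm lay below the filter. None passed in limma, but 5 had an unadjusted p under 0.05, and in the same 5 the groups did not overlap. Of these, KO was higher in 3 and lower in 2. Over all genes tested the 2 shares were 9.13% and 14.8%. The list was chosen with earlier results of these data known, so its counts are a description and no test against those shares. Il1a and Il1b encode the IL-1 ligands. Il1a measured 3.45, 3.66 and 3.47 in the WT mice and 2.66, 2.55 and 3.03 in the KO mice, a difference of -0.78 ± 0.14 (SE; limma adjusted p = 0.210). Il1a passed the filter of 2.99 through its WT signal, since KO mice 1 and 2 lie below it, so its place among the 5 was favoured by the filter; with the pseudocount it was at -0.27.

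Il1b measured 4.74, 4.62 and 3.77 in the WT mice and 3.72, 3.00 and 3.67 in the KO mice. WT mouse 3 lay close to KO mouse 1, and the difference was -0.91 ± 0.27 (SE; limma adjusted p = 0.373). Leaving out WT mouse 3, the WT liver nearest the KO livers, widens the difference by construction. It was then -1.22, with a limma adjusted p of 0.0696, and with the pseudocount it was -0.45.

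Among the 7 receptor genes tested, every KO liver lay above every WT liver in 3, Il1r1, Il6ra and Il1rap, and none passed. The same held in 9.63% of all genes tested. Il1r1, the signalling IL-1 receptor, measured 5.63, 5.45 and 6.08 in the WT mice and 6.42, 6.42 and 7.05 in the KO mice, a difference of 0.91 ± 0.21 (SE; limma adjusted p = 0.301). Il6ra, the ligand-binding chain of the IL-6 receptor, measured 6.71, 7.02 and 7.33 in the WT mice and 7.67, 7.49 and 7.58 in the KO mice, a difference of 0.56 ± 0.15 (SE; limma adjusted p = 0.347). The fifth gene, Il1rap, the IL-1 receptor accessory protein, was at 0.25 ± 0.11 (SE; limma adjusted p = 0.535) and was named after its values were seen, as were the other receptors, in which the groups overlapped: Il6st, the shared signalling chain gp130, was at 0.074, Lifr at 0.098, Osmr at -0.18 and Tnfrsf1a, a receptor for tumour necrosis factor, at -0.0018. Over the same settings the signs of Il1a, Il1b, Il1r1, Il1rap and Il6ra did not change. Il1rap had 3 probe sets, and its values above are those of the brightest. With the mean of the 3 its difference was 0.16, and Il1rap was no longer among the genes with an unadjusted p under 0.05. It also dropped out of those genes with quantile normalization, with median centring and with the replicate block.

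**Figure D4:**
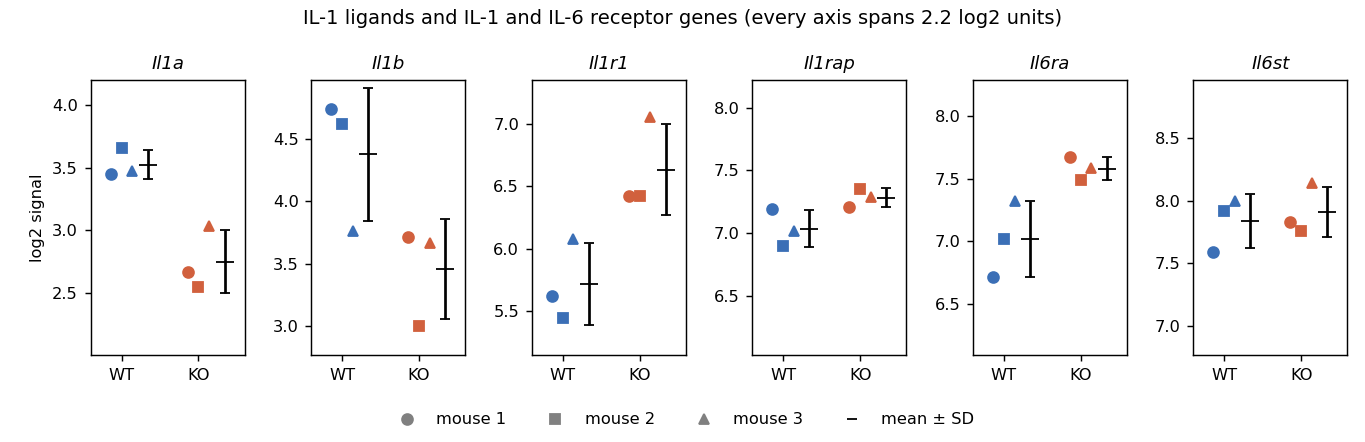
Log2 signal of the IL-1 ligand genes Il1a and Il1b and of the receptor genes Il1r1, Il1rap, Il6ra and Il6st in each mouse, with the same span of 2.2 log2 units on every y axis; WT is blue, KO orange, shapes give the mouse number and bars the mean ± SD (n = 3). The groups are apart in the first 5 panels, lower in KO for both ligands and higher in KO for Il1r1, Il1rap and Il6ra, and overlap for Il6st. The genes were chosen with these data known. Lifr, Osmr and Tnfrsf1a, in which the groups also overlap, are not shown.

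Of 15 kinases, transcription factors and feedback genes of this pathway, 13 were tested, with a median difference of 0.035. Limma called none and 1 had an unadjusted p under 0.05. That was Cebpd, which encodes C/EBP delta, at -0.37 ± 0.15 (SE; limma adjusted p = 0.509): it measured 3.01, 3.02 and 3.55 in the WT mice and 2.81, 2.85 and 2.80 in the KO mice. All 3 KO values lie below the filter, which Cebpd passed through its WT signal, and the difference was -0.19 without WT mouse 3. Jak2, a kinase of cytokine receptors, was at 0.32 ± 0.16, Tyk2, another, at 0.27 ± 0.15, and Bcl3, a nuclear partner of NF-kB, at 0.25 ± 0.17 (SE), with overlapping groups. KO mouse 3 was the highest liver for 4 of the 13 and KO mouse 2 the lowest for 1.

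The 7 glucocorticoid response genes had a median difference of -0.043 and limma called none, with 1 in each direction at an unadjusted p under 0.05. Zbtb16, a zinc finger factor induced by glucocorticoids, measured 3.92, 4.35 and 6.25 in the WT mice and 6.58, 6.35 and 7.15 in the KO mice. WT mouse 3 lay with the KO mice rather than with the other WT mice. The difference was 1.85 ± 0.52 (SE; limma adjusted p = 0.357), and 2.56 without WT mouse 3, where it passed (adjusted p = 0.00337). Sgk1, a kinase induced by serum and glucocorticoids, measured 4.98, 5.001 and 4.59 in the WT mice and 4.39, 4.26 and 4.32 in the KO mice, a difference of -0.54 ± 0.13 (SE; limma adjusted p = 0.306) that also passed without WT mouse 3, at -0.67 (adjusted p = 0.0475). For Zbtb16 and Sgk1 WT mouse 3 was the WT liver nearest the KO livers, so leaving it out widens the difference by construction. Without it limma called 51 of all genes tested, against 4 with all 6 mice, and the values there are a description. Per1, a clock gene, was at -0.27 ± 0.18 and Klf9 at -0.16 ± 0.11 (SE), with overlapping groups.

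Among 7 tested genes that take up or process the members and their cargo, limma called none, and 1 in each direction had an unadjusted p under 0.05; the median difference was 0.097. Hmox1, the haem oxygenase that degrades haem, measured 4.63, 4.67 and 4.82 in the WT mice and 4.32, 4.09 and 4.56 in the KO mice; the groups were apart, at -0.38 ± 0.13 (SE; limma adjusted p = 0.437). Scarb1, a receptor for high-density lipoprotein, was at 0.30 ± 0.12 (adjusted p = 0.508). Cd163, the macrophage receptor for haptoglobin bound to haemoglobin, was at 0.39 ± 0.21 (SE) and at 0.12 without KO mouse 3, in which it stood at 5.37 against 4.40 to 4.69 in the other 5 livers. Tfrc, the transferrin receptor, was at -0.16 ± 0.11 (SE).

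Other cell types can make Lcn2 and Saa3, so their markers were summed as linear signal. All 13 neutrophil and monocyte markers, S100a8, S100a9 and Ly6g among them, lay below the filter, and their sum ran from 63.0 to 65.6 in WT and from 63.3 to 65.3 in KO, with KO mouse 3 at 63.3. The 8 Kupffer cell markers, all above the filter, summed to 593.5, 349.5 and 347.4 in the WT mice and 375.2, 416.6 and 583.0 in the KO mice. WT mouse 1 and KO mouse 3 thus had the highest sums. Part of the sum in WT mouse 1 came from Marco, which stood at 6.86 there and at 3.98 to 5.28 in the other livers. KO mouse 3 was the highest liver for 6 of these 8 markers, as it was for 8 of the 10 members, and WT mouse 1 for the other two, Marco and Timd4, and for 0 of the members. Saa3 was at 4.43 in WT mouse 1 and 5.66 in KO mouse 3. The part of Kupffer cells in the Saa3 values and in the other members' values in KO mouse 3 was not tested. Of 5 fat cell markers in the table, Adipoq, Lep and Retn lay below the filter; the sum ran from 86.8 to 163.0 in WT and from 66.9 to 127.9 in KO. Hepatocyte markers summed to 14480 to 14630 in WT and 14230 to 14910 in KO, highest in KO mouse 3. The 8 endothelial and stellate markers summed to 628.8 to 753.7 in WT and 616.0 to 702.8 in KO.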

How the data were processed

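The members, gene lists and motifs were chosen with earlier results of these data known. Per the labels' protocols, 100 ng of Trizol-extracted RNA was labelled with biotin for an Affymetrix whole-transcript array. The authors deposited 1 log2 value per probe set and mouse (41345 probe sets); the sources used here name no summary or normalization method, and the values themselves set the log2 scale (maxima of 12.1 to 12.2). All 6 columns were mapped to a mouse and 0 were left over.

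Probe sets with 1 gene symbol were used (23521; 1814 had several and 16010 none), with symbols updated by Entrez number to a GRCm38.p6 gene table (23328 matched); of several probe sets the one with the highest mean was kept. The upper 50% of genes by mean signal (2.99 and above) was tested with limma 3.58.1 in R 4.3.3 (lmFit, eBayes, no covariate, two-sided, Benjamini-Hochberg over 11090 genes, threshold 0.05). Exact permutation tests were two-sided. Fits were tested on simulated data. The number of arrays limits the precision (median SE 0.114).

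Text names the members, Gpr146, Alb, per fixed list any gene past the threshold and otherwise up to 4 of smallest p, and the 5 genes nearest in profile. Alternatives were the filter, probe set choice, quantile normalization, median centring, a pseudocount of 16, trend and robust options, array weights, a replicate block and leaving out each mouse. Mouse numbers were not taken as pairs: deviations of same-numbered mice correlated at 0.055, -0.19 and 0.15. A protein identity comparison was planned but not run, since no protein table was used here. Genes with no single-gene probe set, among them Saa1, C3, Trf and Gc, were not analysed here.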

Additional observations from a re-analysis of the deposited data

How the results depend on the processing

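None of the 10 members passed limma's threshold with all 6 mice or in any of the 15 alternatives, counting the 2 filters, in which 10 and 8 members were tested; with all 6 mice 1 had an unadjusted p under 0.05. The count of all genes called, 4, was 0 in the upper 25% of signal (567 at an unadjusted limma p under 0.05), 1 with the pseudocount and 1 with the replicate block, under which 0 members passed; 3 of the 6 mice correlated best with their own number. With a mouse left out the count of all genes called ran from 1 to 51, the latter without WT mouse 3. The members' median difference ran from -0.21 without KO mouse 3 to 0.21 without KO mouse 2. Signs turned for Orm1 with the pseudocount (0.0027), for Orm2 and Saa2 with array weights (-0.040 and -0.015) and for Zfp943 with the mean of its probe sets (-0.011). With each mouse left out in turn, signs also turned in genes whose ranges were -0.34 to 0.25 for Orm1, -0.30 to 0.47 for Orm2, -0.30 to 0.56 for Saa2, -0.015 to 0.22 for Saa4, -0.0049 to 0.070 for Hp and -0.50 to 0.20 for Lcn2. The same holds for Lbp (-0.26 to 0.091), Zfp943 (-0.13 to 0.15), Prr29 (-0.20 to 0.11), Cxcl9 (-0.035 to 0.31), Zscan29 (-0.18 to 0.085), Serpina6 (-0.14 to 0.057), Apoa2 (-0.00047 to 0.053), Il6st (-0.047 to 0.15), Lifr (-0.083 to 0.24), Osmr (-0.30 to 0.016), Tnfrsf1a (-0.12 to 0.16) and Alb (-0.024 to 0.0005). Orm3, Saa3, Apcs and Hpx kept their sign in every alternative that included them. The causes were not tested. Gpr146 passed with median centring (adjusted p = 0.0204), without WT mouse 3 (0.0268) and with eBayes options for trend and robustness (0.0272). Orm3 and Saa3 drop out of the upper 25% of signal, so no value exists there. Background on an array compresses the folds of weak signals such as Orm3, Saa3 and Il1a.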
